A study of Drosophila melanogaster with 2 samples.

Results

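The genes described here encode 9 enzymes of de novo nucleotide synthesis in Drosophila melanogaster: Prat, Prat2, Gart, Paics, ras, AdSS, r, r-l and Dhod. They were chosen by name and not filtered by any measured value, though earlier results of these data were known. All 9 were found among the 13945 protein-coding genes of the dm6 annotation, with AdSS under its current symbol Adss. The measurement was ChIP-seq of Dp, the partner with which E2F transcription factors bind DNA. All samples were whole embryos of both sexes, 0 to 24 hours old, from a transgenic line that stably expresses Dp with green fluorescent protein at its C-terminal end (Dp-eGFP). They form a single group with 2 biological replicates, numbered 1 and 3. The labels call both libraries input controls while naming Dp as the antibody target, and these statements were not reconciled. There is no contrast between conditions, so the questions are where Dp lay at these genes, how high its signal was and how far the replicates differed. Nothing says how the replicates were separated beyond their numbers, so their spread may be technical in part.

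De novo synthesis builds nucleotides from small precursors, and proliferating tissues such as the early embryo draw on it for RNA and DNA. The purine branch assembles a ring on ribose phosphate to reach IMP, from which AMP and GMP are made. The pyrimidine branch makes the ring first, as orotate, and then attaches it to ribose phosphate to reach UMP. E2F and Dp are known for regulating genes of DNA replication. Dp is also part of the dREAM complex, which joins E2F and Dp with Myb and MuvB proteins.

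A few stretches of promoter DNA carry the description that follows. Each is 201 bases centred on the strongest summit at the gene, read from the RefSeq Release 6 (dm6) genome in the gene's direction. A summit is the base of highest signal within a peak. Capitals mark matches to the E2F core (TTNNCGC, each N being C or G), to the cell cycle homology region or CHR (TTNGAA, N being C or T), which MuvB complexes bind in mammals, and to the DNA replication-related element or DRE (TATCGATA), the site of the factor DREF. Both strands were searched. The stretch of r-l, at chr3R:21073288-21073488 on the minus strand, is shown because it held 1 of the strongest peaks of the whole list and 3 CHR matches. That of Prat, at chr3R:7911709-7911909 on the minus strand, has a DRE on the summit. That of ras, at chrX:10745039-10745239 on the plus strand, has 2 DREs. Its summit is nearer to a start of the neighbouring gene stx than to any start of ras. That of r, at chrX:16655205-16655405 on the plus strand, has none of these motifs although its signal was the second highest of the 9 genes. That of Dhod, at chr3R:8652839-8653039 on the minus strand, belongs to the gene just below the authors' threshold, and its CHR is read on the other strand.
r-l: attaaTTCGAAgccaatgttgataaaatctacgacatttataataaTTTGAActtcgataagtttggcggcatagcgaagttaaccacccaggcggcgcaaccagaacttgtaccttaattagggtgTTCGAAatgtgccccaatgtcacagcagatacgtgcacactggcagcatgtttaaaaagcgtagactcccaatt
Prat: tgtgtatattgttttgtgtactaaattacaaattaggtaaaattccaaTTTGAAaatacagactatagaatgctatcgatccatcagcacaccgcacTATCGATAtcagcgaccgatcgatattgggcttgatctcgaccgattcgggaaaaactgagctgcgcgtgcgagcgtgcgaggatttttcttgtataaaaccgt
ras: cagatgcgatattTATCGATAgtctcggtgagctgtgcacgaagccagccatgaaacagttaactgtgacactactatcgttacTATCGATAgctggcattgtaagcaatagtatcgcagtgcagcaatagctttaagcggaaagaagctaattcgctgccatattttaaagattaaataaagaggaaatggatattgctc
r: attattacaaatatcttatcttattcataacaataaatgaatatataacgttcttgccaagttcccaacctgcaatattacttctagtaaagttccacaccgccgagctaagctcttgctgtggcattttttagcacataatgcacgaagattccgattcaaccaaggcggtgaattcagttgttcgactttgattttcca
Dhod: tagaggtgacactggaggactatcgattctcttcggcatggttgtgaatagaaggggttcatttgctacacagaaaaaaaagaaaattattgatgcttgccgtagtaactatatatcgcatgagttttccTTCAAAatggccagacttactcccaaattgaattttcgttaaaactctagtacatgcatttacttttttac

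Dp was found at the starts of 5 of the 9 genes: Prat, ras, AdSS, r and r-l. A gene was called bound when the authors' thresholded list, which keeps peaks by irreproducible discovery rate, had a summit no farther than 500 bp from 1 of its starts. By this rule 5891 of all 13945 protein-coding genes were bound, or 42.2%, beside 55.6% of these 9. In the relaxed list of both replicates pooled, which also keeps weak peaks, 8 of the 9 genes had a summit in reach, beside 60.3% of all genes. The same 8 had a relaxed summit in each replicate, beside 56.3% of all genes, and only Prat2 had none. Chromatin came from whole embryos, so binding in few cells and weaker binding in many cannot be told apart.

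The signal of the bound genes spanned a wide range, from 331.1 at AdSS to 9229.1 at r-l. The signal is the authors' own value per peak on a scale that is not stated, so it serves to rank peaks within a list, and differences between replicates may hold a difference of scale. Its median was 1006.2 over the 5 bound synthesis genes and 735.5 over all bound genes, a ratio of 1.37. Of the 5, r-l, r and Prat were above that overall median and ras and AdSS were below it. The thresholded list ran from 212.8 to 12684.6. Its 5828 summits fall in 5134 intervals, whose median width is 526 bp, and each relaxed list has 30000 summits. Read depth is unknown, since the lists hold no reads.

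**Figure D1:**
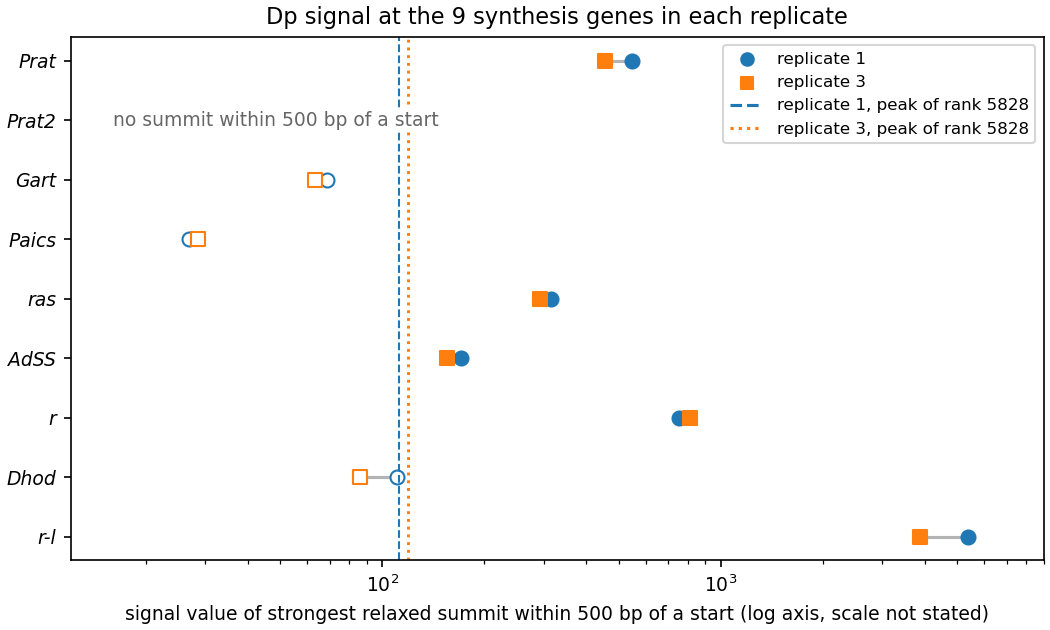
Signal value of the strongest relaxed summit within 500 bp of a start for each of the 9 genes (log axis), with 1 point per replicate. The points of r-l lie highest, at 5381.6 and 3877.7, those of Paics lowest, at 26.89 and 28.46, and Prat2 has none.

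The purine branch opens with amidophosphoribosyltransferase, its first committed step, which Drosophila encodes in Prat and Prat2. Prat was bound and Prat2 was not. The Prat peak (FBgn0004901, dm6 3R, 7911491 to 7912004, 514 bp) lay between genes, with its summit 30 bp upstream of the single start. Its signal was 548.1 in replicate 1 and 454.0 in replicate 3, and 1006.2 in the pooled calls, at rank 2027 of 5828. Of all bound genes, 38.7% had a higher value. Prat2 (FBgn0041194, 3L, 6911999 to 6914876) had no summit within 500 bp of either of its 2 starts in any of the 4 lists. From 5 kb upstream to 5 kb downstream of Prat2, the lists held a single summit, found in replicate 1 alone, 2789 bp upstream, with a signal of 15.0 at rank 29084 of 30000. The nearest thresholded summit was 9559 bp from a Prat2 start. The pair of genes for 1 enzyme therefore differed in every list, a summit being in reach of Prat and of no Prat2 start.

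Gart and Paics encode multifunctional enzymes of ring assembly, and both were below the threshold. Gart (FBgn0000053, 2L, 7014623 to 7023898), which makes glycinamide and aminoimidazole ribonucleotides and carries a transformylase, had a relaxed summit 125 bp upstream of its start. Its signal was 68.54 in replicate 1, 63.33 in replicate 3 and 128.4 in the pooled list. That pooled value was 60.4% of the lowest thresholded signal, and its rank of 7581 was 1753 places past the last thresholded peak. Paics (FBgn0020513, X, 12757036 to 12760617), which carries out the next carboxylation and the step that adds aspartate, had weaker summits still. Its signal was 26.89 in replicate 1, 28.46 in replicate 3 and 41.77 in the pooled list, at rank 18230. The −log10 q of that pooled summit was 0.99, where every thresholded peak had 4.30. The strongest pooled summits of Gart and Dhod, though below the threshold, also had 4.30. The strongest Paics summits of the replicates were 482 bp apart, 1 upstream and 1 downstream of the start. A weaker summit lay downstream of the start in both, 404 bp from it in replicate 1 and 326 bp in replicate 3, beside 457 bp for the pooled summit.

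From IMP the branch divides, and both genes at that fork were bound with modest signal. The gene ras encodes IMP dehydrogenase, on the way to GMP. Its interval (FBgn0003204, X, 10744782 to 10745606, 825 bp) held 2 summits between its starts at 10744502 and 10745434. The stronger, at 10745139, lay 295 bp upstream of the downstream start, in an intron of ras and an exon of lncRNA:CR44766. The weaker, at 10745345, lay 89 bp upstream of the same start with a pooled signal of 456.1. For the stronger summit the signal was 314.3 in replicate 1, 291.9 in replicate 3 and 601.7 pooled, at rank 3056, and 59.1% of bound genes were higher. That summit was nearer to a start of stx, 196 bp away on the opposite strand, than to any start of ras. AdSS (FBgn0027493, 3R, 20824667 to 20830580), adenylosuccinate synthetase on the way to AMP, had the weakest thresholded peak of the 5 genes. Its summit was 69 bp upstream, in a peak of 391 bp, with a signal of 170.9 in replicate 1, 155.6 in replicate 3 and 331.1 pooled. Of bound genes, 85.6% were higher. A separate thresholded summit with a signal of 255.7 lay 531 bp from the AdSS start, just past the reach used here and 16 bp from the start of CG31223.

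Among the 9 genes, the strongest peaks were those of r-l and r, both of the pyrimidine branch. Of the further de novo genes described below, CG11089, bur, CTPsyn and Pfas had higher signals than r, and AdSL and Prps lower ones. The gene r encodes the CAD protein, in which carbamoyl phosphate synthetase, aspartate transcarbamylase and dihydroorotase are fused. Its peak (FBgn0003189, X, 16654765 to 16655639, 875 bp) lay between genes with the summit 54 bp upstream of the first of its 3 starts. The signal was 753.9 in replicate 1, 812.4 in replicate 3 and 1540.4 pooled, at rank 1490, and 28.2% of bound genes were higher. Nemp starts 344 bp from r on the opposite strand, and its start was 290 bp from the summit. A shared peak cannot be assigned to either gene of such a pair.

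Dhod encodes dihydroorotate dehydrogenase, the mitochondrial step that yields orotate, and was just below the threshold. Its pooled summit (FBgn0000447, 3R, 8651391 to 8652916) lay 23 bp upstream of a start, in an intron of Sys1. The signal was 110.7 in replicate 1, 86.2 in replicate 3 and 195.1 pooled. The pooled value was 91.7% of the lowest thresholded signal, and its rank of 6087 was 259 places past the last thresholded peak. Sys1 starts 72 bp from that summit, on the opposite strand.

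The gene r-l encodes UMP synthase, the enzyme that turns orotate into UMP, and had by far the highest signal of the 9. Its peak (FBgn0003257, 3R, 21072910 to 21073768, 859 bp) lay between genes, 69 bp upstream of the single start. The signal was 5381.6 in replicate 1, where the summit ranked 7, and 3877.7 in replicate 3, where it ranked 17. In the pooled calls it was 9229.1, at rank 12 of 5828 summits and number 9 among the 5891 bound genes. That was 12.6-fold the median of bound genes. No other gene start lay within 500 bp of this summit, and the nearest was that of dmrt93B, 619 bp away. The plot of all genes shows how far it sits from the middle of the distribution.

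**Figure D2:**
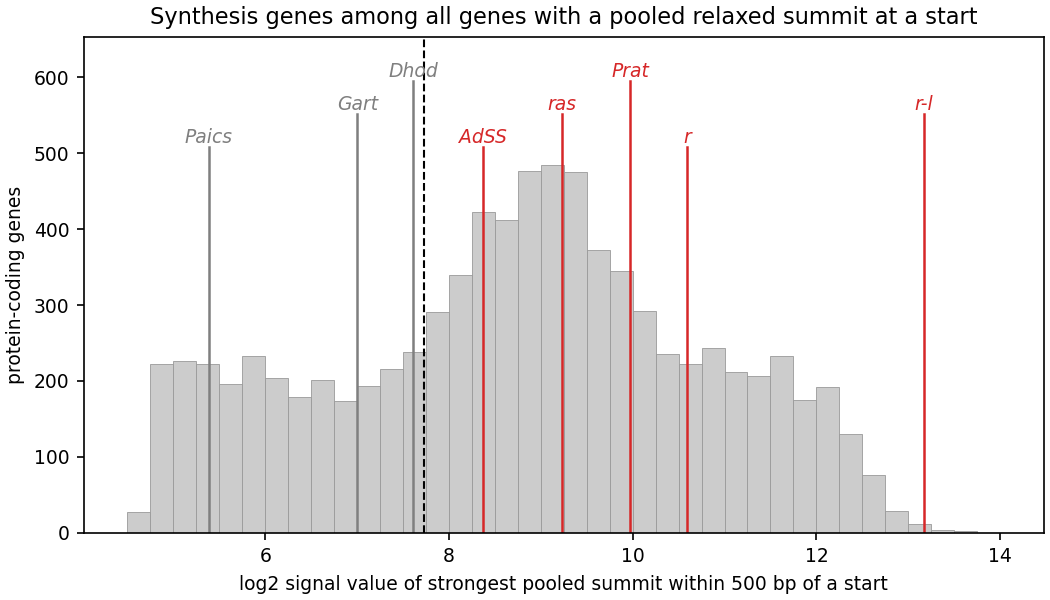
Number of protein-coding genes by log2 signal value of their strongest pooled relaxed summit within 500 bp of a start, with the bound synthesis genes in red, the others in gray and the lowest thresholded signal, 212.8, as a dashed line. The marks spread over the whole range, from Paics at a signal of 41.77 to r-l at 9229.1.

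At the 5 bound genes the replicate summits lay 0 to 35 bp from the pooled ones. All 5 peaks overlapped strong peaks of both replicates, which the selection of the thresholded list by agreement between these replicates leads to and which is no separate support. The log2 difference of replicate 3 minus replicate 1 was −0.27 at Prat, −0.11 at ras, −0.14 at AdSS, 0.11 at r and −0.47 at r-l. Over 5875 bound genes with a summit in both lists its median was −0.20 with an SD of 0.30, so these 5 lay between −0.90 and 1.03 SD from the median. The order r-l, r, Prat, ras, AdSS held in both replicates. By ratio, the closest neighbours in that order were r and Prat in replicate 1, at 753.9 and 548.1, and Prat and ras in replicate 3, at 454.0 and 291.9. Within either replicate, each step in the order was larger than the difference between replicates at the genes on either side of it, any difference of scale between the lists included. No p-value is given, since there is no second group.

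Around the genes, all but 2 of the other thresholded summits lay within 500 bp of a neighbour's start; the exceptions were near Paics and r-l. The strongest was 4095 bp upstream of r, with a signal of 4449.2 at rank 336, higher than the peak of r itself and 112 bp from the start of CG32573. AdSS had 5 further thresholded summits in its surroundings, with signals from 244.1 to 753.7, and Paics had 4, from 354.2 to 566.9, the weakest in an exon of lncRNA:CR44619. The stronger ones at AdSS lay 46 bp from CG17272 and 147 bp from CG17271. At Gart, summits with signals of 692.9 and 586.8 lay 14 bp from CG31908 and 26 bp from MME1. Prat had 2, at 665.0 beside the start of Rfk and at 408.2 beside EMC1. Dhod had 1, 134 bp from SLIRP2, with a signal of 592.1. A summit 3323 bp from the r-l start, in an intron of AnxB9, had a signal of 318.0 and no protein-coding start nearer than that of r-l. Around ras no other thresholded summit was found, and the highest of its 9 other pooled summits had a signal of 133.5.

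**Figure D3:**
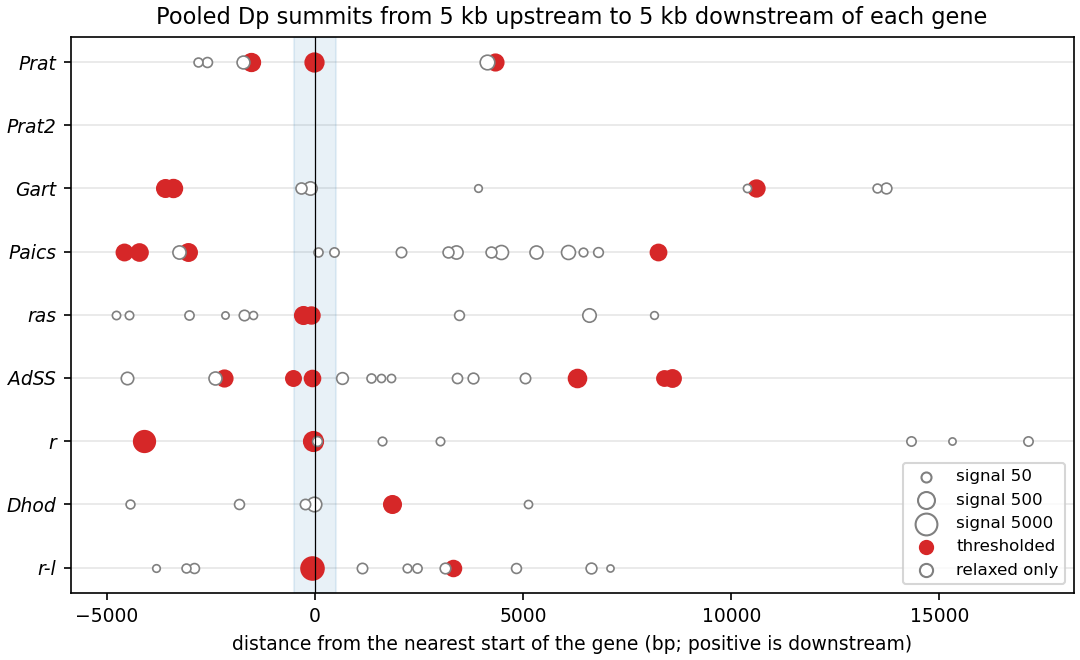
Pooled Dp summits from 5 kb upstream to 5 kb downstream of each gene, by distance in bp from the nearest start of the gene, with larger circles for higher signal, thresholded summits filled and the 500 bp reach shaded. Thresholded summits lie close to the start at Prat, ras, AdSS, r and r-l, while Gart, Paics and Dhod have thresholded summits only farther away and Prat2 has no pooled summit at all.

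The peaks also differed in whether a neighbour shared them. The summits of ras, AdSS and r lay within 500 bp of a start of another protein-coding gene (stx, CG31223 and Nemp), while those of Prat and r-l did not. Over all bound genes, 3444 of 5891, or 58.5%, shared their summit in this way. At AdSS the neighbour's start was 478 bp away, near the limit of the reach.

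Motif content varied from gene to gene, as the sequences above show. The E2F core was within 100 bp of the summit at 0 of the 5 bound genes, beside 18.9% of all 5828 peaks and 10.8% of windows of the same length centred on the outermost start of each protein-coding gene. Cores lay farther out in the same peaks at ras, 184 bp upstream and 315 bp downstream of the stronger summit, the latter 109 bp from the weaker one, and at r-l, 377 and 435 bp downstream. Of the unbound genes, Paics had a core centred 40 bp upstream of its strongest pooled summit, a weak one with a −log10 q of 0.99. In promoters, from 250 bp before to 50 bp after any start of a gene, the core was found at 1 of the 9 genes, ras, beside 18.1% of all genes. The CHR was near the summit at Prat and r-l, 2 of 5 genes, beside 49.3% of peaks and 33.5% of the windows at starts. In promoters it was found at 6 of the 9 genes, 4 bound (Prat, ras, r and r-l) and 2 unbound (Gart and Dhod), beside 54.0% of all genes. At r-l it occurred 3 times in the window, centred 92.5 and 51.5 bp upstream and 29.5 bp downstream of the summit, and 154 of all peaks, or 2.64%, had 3 or more. Among the 100 strongest peaks of the list, 77 had a CHR, 10 had 3 or more and 45 had an E2F core.

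The DRE was near the summit at Prat and ras, beside 14.5% of peaks and 7.84% of the windows at starts. In promoters Prat alone of the 9 genes had it, beside 10.2% of all genes. At Prat the summit base lay inside the DRE, which was so for 62 peaks, or 1.06%. At ras the DREs were centred 12.5 and 83.5 bp upstream of the stronger summit, and 81 peaks, or 1.39%, had 2 or more. That summit was nearer to a start of stx than to any start of ras. Neither DRE was within 100 bp of the weaker summit, the one nearest to a start of ras. Neither r nor AdSS had an E2F core, CHR or DRE in the window, which was also so for 2066 peaks, or 35.4%. In the r peak a CHR and a DRE lay 186.5 and 221.5 bp upstream of the summit, on the side of Nemp. The Myb site (NAACNG, the first N being C or T and the second G or T) was near the summit at ras, AdSS and r, beside 32.0% of peaks and 35.0% of the windows at starts. The sequence CGATA, which is contained in the DRE, was found at Prat, ras and r-l, beside 51.0% of peaks. Core promoter motif 1 and the E-box CACGTG were near the summit of none of the 5, beside 7.02% and 3.05% of peaks. A match describes these letters and does not show that a factor was bound there.

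**Figure D4:**
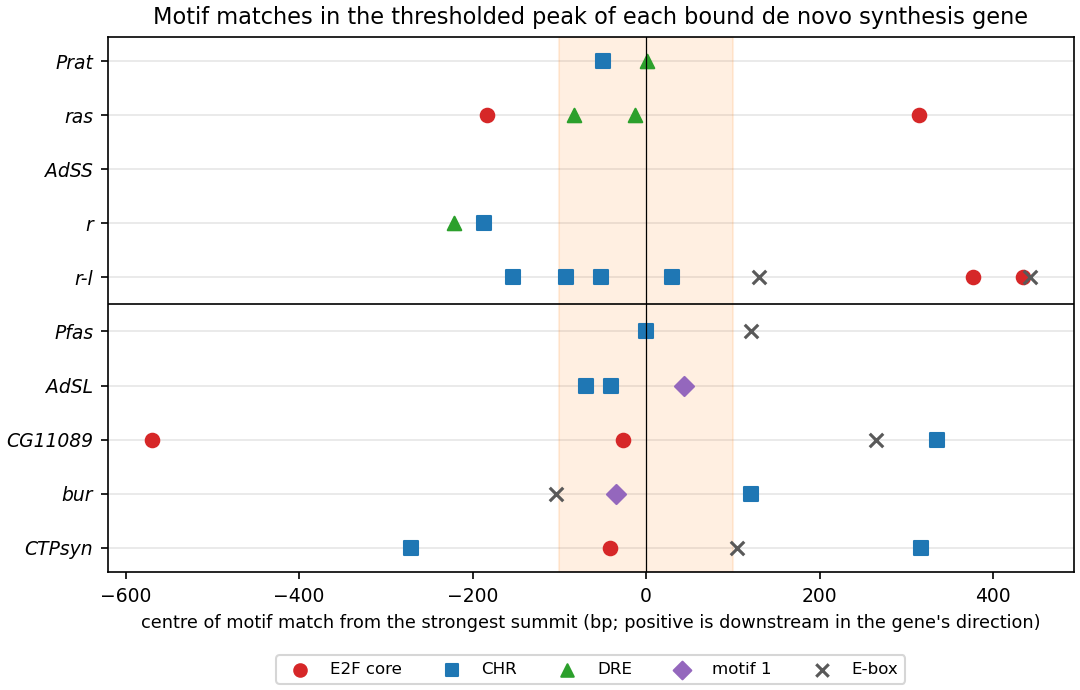
Position of each motif match from the strongest summit, in bp in the gene's direction, within the thresholded peak of each bound de novo synthesis gene. The 4 CHR matches of r-l lie from 153.5 bp upstream to 29.5 bp downstream, and the DRE of Prat lies on the summit.

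Of 6 further genes of de novo synthesis, 5 were bound, or 83.3%, beside 42.2% of all protein-coding genes. The median signal of those 5 was 2670.7, 3.63-fold that of all bound genes. CG11089, which encodes the bifunctional enzyme of the last steps to IMP, had 2723.1 in replicate 1, 2289.6 in replicate 3 and 5003.4 pooled, 22 bp upstream of a start that it shares with CG31381. GMP synthase, encoded by bur, had 1616.8, 1352.9 and 2950.8, but its summit lay 217 bp from bur and 33 bp from the start of Mcm10. CTP synthase (CTPsyn) had 1468.0, 1227.8 and 2670.7, and Pfas, the enzyme of the step between those of Gart, had 1120.3, 893.5 and 2014.4. Adenylosuccinate lyase (AdSL) was the weakest bound gene of the 6, at 285.7, 275.7 and 565.0. Prps, which makes the activated ribose phosphate that both branches use, was not bound, with 83.44, 112.7 and 192.0, and its relaxed summit was 305 places past the last thresholded peak.

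Among the 5 bound ones, the E2F core was near the strongest summit of CG11089 and CTPsyn, beside 18.9% of peaks, and a CHR near those of Pfas and AdSL, beside 49.3% of peaks. The strongest relaxed summit of Prps also had a CHR, centred 65.5 bp away. Of all 15 de novo genes, 10 were bound, or 66.7%, beside 42.2% of all protein-coding genes. The median signal of those 10 was 1777.4, 2.42-fold that of all bound genes. Along the purine branch to IMP, bound and unbound genes were mixed: Prat, Pfas, AdSL and CG11089 were bound, and Prps, Prat2, Gart and Paics were not. Of the listed genes of the pyrimidine branch to CTP (r, Dhod, r-l and CTPsyn) only Dhod was not bound, and it had a relaxed summit close to the threshold. With so few genes, these counts are read beside the 42.2% of all genes and not as a difference between the branches.

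Neighbouring routes of nucleotide metabolism ranged from all members bound to few. In deoxynucleotide supply, all 5 genes reported were bound, with a median signal of 1514.0: thymidylate synthase (Ts) at 3500.9, dUTPase at 2194.8 (its summit 200 bp from dUTPase and 26 bp from Art8), the ribonucleotide reductase subunits RnrL and RnrS at 1514.0 and 1475.0, and the deoxynucleoside kinase dnk at 540.4. All 3 genes of one-carbon supply, which provides folate-bound carbon for the purine ring, were bound: Nmdmc at 3522.0, Shmt at 1523.3 and pug at 929.3. All 4 salvage genes, which recycle bases and nucleosides, were bound, with a median of 712.9, close to that of all bound genes. Among them Aprt, which recovers adenine, had 4777.8, Uck 934.3, kri 491.5 and AdenoK 296.9. The kri summit was 18 bp from the start of S6k and 24 bp from that of kri. Summits of dnk, Uck and all 3 one-carbon genes also lay within 500 bp of a start of another protein-coding gene. Over all bound genes 58.5% shared their summit in this way. Of 5 catabolic genes only CRMP was bound, at 284.7, while ry and su(r) had relaxed summits of 114.0 and 65.91 and pyd3 and Uro had none in reach. These lists hold 3 to 5 reported genes each, and their shares are read beside the 42.2% of all genes and not as differences between lists.

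**Figure D5:**
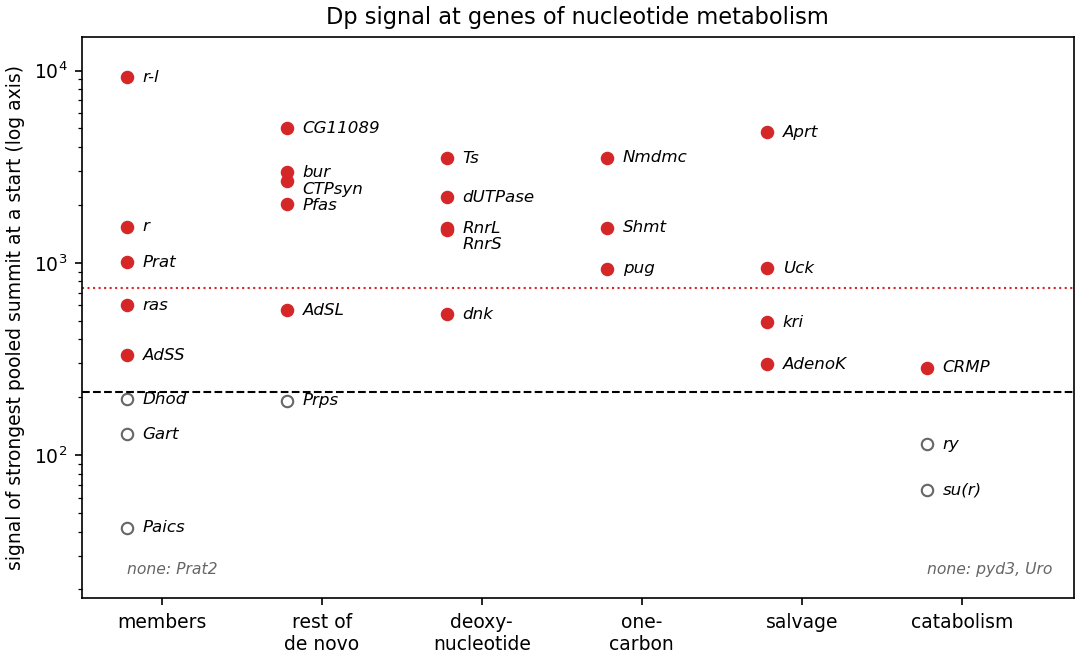
Signal value of the strongest pooled relaxed summit within 500 bp of a start (log axis) for each gene of the synthesis genes and 5 further lists of nucleotide metabolism. Signals of bound genes run from 284.7 at CRMP to 9229.1 at r-l, and 4 of 5 catabolic genes lie below the threshold or have no summit.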

How the data were processed

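Peaks of Dp ChIP-seq from sonicated chromatin (200 to 800 bp, per the labels) of 2 embryo replicates were used. The authors deposited a relaxed list per replicate, a pooled relaxed list and a thresholded list, on dm6 per the file headers, each called against the same separate control alignment. The sources used here do not name the aligner or the caller. Signal values are as deposited by the authors, with no stated scale. They were ranked within a list. Between the replicate lists they were compared as a log2 difference. Pooled values and ranks of unbound genes were also set against the lowest signal and last rank of the thresholded list. Those 2 lists gave the same signal at each bound synthesis gene. The −log10 q was deposited by the authors and reached its highest value of 4.30 in every thresholded peak. It also reached 4.30 in pooled summits below the threshold, those of Gart and Dhod among them. Summit positions come from the offset to the peak start that the authors deposited. Replicate signals are those of each replicate's strongest relaxed summit in reach of a start. Read depth is unknown.

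Genes came from Ensembl release 115, limited to protein-coding ones on 6 main arms, and sequence from the RefSeq dm6 genome. Coordinates are 1-based. One further listed gene is not reported here, so shares over the lists leave it out. All 32 others were matched, 4 of them through RefSeq synonyms. A gene's value is that of its strongest summit within 500 bp of a start. Motifs, 7 in all, were matched exactly on both strands. The rule for named genes took every gene of the lists whatever its value and the genes with a start within 500 bp of a synthesis gene's thresholded summit; other neighbours, the windows at starts and promoters of any start, and the E-box counts in the closing section were picked once their values were known. The genes and lists were chosen with earlier results of these data known. No test was run, as there is 1 group. The matching of summits, starts and motifs was tested on simulated data. Analyses used Python 3.11.15, numpy 2.4.6, pandas 2.3.3 and matplotlib 3.10.9.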

Additional observations from a re-analysis of the deposited data

How the results depend on the processing

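Of 63 comparisons with an alternative setting, 51 stayed within the limits set for a change and 12 moved. Reversal of direction was not assessed. Counting all gene types could not change the number of bound synthesis genes. The limit for the ratio of medians came from its own values with 1 replicate left out. With the 2914 strongest peaks, 3 of the 9 genes were bound (Prat, r and r-l), a number that a shorter list can only lower. The share of all genes bound by those peaks is not given here, so 3 of 9 is not read as a result. With the pooled relaxed list 8 of the 9 had a summit in reach, beside 60.3% of all genes. The ratio of the median signal of bound synthesis genes to that of all bound genes was 1.00 with either of these lists (1.002 and 1.004), beside 1.37 in the thresholded list, and 1.233 to 1.388 with 1 replicate left out. The E2F core was near the summit of 1 bound gene, ras, with a window of 200 bp, and the CHR near that of 1, r-l, with 50 bp. With a reach of 250 bp, 0 bound synthesis genes shared their summit with another gene. With 1000 bp, 4 did, r-l among them. The shares over all peaks at these motif windows and over all bound genes at these reaches are not given here. These counts are therefore not read as results about the synthesis genes. With each summit given to its nearest start only, the other pathway genes bound numbered 16 in place of 18, bur and kri being lost. The share of all genes bound under that rule is not given here. The cause of the change with 1 replicate left out was not tested. For ras and r, taking the pooled relaxed summit nearest to any start, in place of the strongest, gave ranks of 3755 and 16187 of 30000. At r that nearest summit, with a signal of 46.45, was not in the thresholded list. The only r summit in reach in the thresholded list had rank 1490. No paired analysis was possible because the replicates form 1 group. Peak lists without reads set no limit of detection, so Prat2 without a summit cannot be read as Prat2 without Dp.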

Other observations

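The E-box CACGTG, the site known for Myc and Max, was within 100 bp of the strongest summit at 0 of the 10 bound de novo genes. Beside it, 3.05% of all peaks had 1, so 0 of 10 is not read as a result. The E-box lay elsewhere around many starts of de novo synthesis genes. It was found within 500 bp of a start in 10 of the 15 de novo genes, or 66.7%, beside 15.4% of all protein-coding genes, 17.7% of bound ones and 13.2% of genes with 1 start. These were Prat, Gart, Paics, r and r-l of the 9 genes, and Prps, Pfas, CG11089, bur and CTPsyn of the other 6. Bound and unbound genes were both among them, as Gart, Paics and Prps were not bound. Several of the 15 genes have more than 1 start, which gives more sequence to search. The share over all genes with more than 1 start is not given here. Within the peaks themselves, 5 of the 10 bound de novo genes had an E-box, beside 7.99% of all intervals and 11.1% of intervals of 600 bp or more. Those 5 peaks were at least 603 bp wide. At r-l the E-boxes were centred 130.5 and 442.5 bp downstream of the summit. Of the salvage genes 0 of 4 had an E-box within 500 bp of a start, of the one-carbon genes 1 of 3, of the deoxynucleotide genes reported 2 of 5 and of the catabolic genes 1 of 5. The pattern was noticed in these data and not tested, and Myc was not measured here.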
